A study of Mus musculus with 33 samples.

Results

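The immediate early genes Fos, Egr1, Egr2 and Egr3, the MAPK feedback phosphatases Dusp4 and Dusp6, and the transcription factor Elk1 were examined in mouse bone marrow (BM) after short treatment with venetoclax or ruxolitinib. These genes were chosen by name, and all 7 had a probe among the 750 endogenous probes of the panel. RNA was measured on the NanoString nCounter, which counts colour-coded barcodes hybridised to each RNA in 1 lane per mouse, without amplification. The 33 mice were female C57BL/6 animals aged 6 to 8 weeks in 13 groups. They were treated with drug or vehicle or left untreated, with no irradiation or transplant in their labels.

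Venetoclax, an inhibitor of the survival protein BCL2, was given 1 time a day, and ruxolitinib, an inhibitor of the kinases JAK1 and JAK2, was given 2 times a day. Both were given by oral gavage for 2 days, at a dose that the series records write as 100 mg/ml for venetoclax and 180 mg/ml for ruxolitinib. The venetoclax vehicle held phosal 50 PG, PEG 400 and ethanol, and the ruxolitinib vehicle held DMSO, PEG 300 and water. BM was collected on day 1, 3 or 7 after treatment from 3 mice per drug and 2 mice per vehicle on each day, and from 3 untreated mice. All mice of a day were read together, and each of the 3 instrument runs had 11 lanes and included 1 untreated mouse, so day and run cannot be told apart, whereas each drug and its vehicle shared a run.

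Growth factor and cytokine receptors activate the RAS, RAF, MEK and ERK kinases, the mitogen-activated protein kinase (MAPK) cascade. Active ERK phosphorylates ELK1, which binds with serum response factor in front of Fos and the Egr genes, and these are transcribed within minutes without new protein synthesis. FOS pairs with JUN to form the AP-1 transcription factor, and the EGR proteins are zinc finger transcription factors. DUSP6 removes phosphate from ERK in the cytoplasm and DUSP4 acts on MAPKs in the nucleus. Dusp4 and Dusp6 are themselves switched on by ERK, which makes them a feedback arm.

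Fos and Dusp6 were the members with a measurement in every mouse, and the bases just before their start sites are shown so that the promoters of the best measured transcription factor and the best measured phosphatase can be read side by side. The 250 bases of each are from RefSeq on mouse build GRCm38.p6, plus strand, 5′ to 3′. Fos, on chromosome 12 from 85473890 to 85477274, has the window chr12:85473640-85473889. Dusp6, on chromosome 10 from 99263231 to 99267489, has the window chr10:99262981-99263230. Capitals mark matches on either strand to TGACG (the core of a cAMP response element), GGGCGG (a GC box), TTCNNNGAA (a STAT palindrome), CGGAAG (an ETS core, the family of ELK1) or GCGTGGGCG (an EGR site).
Fos: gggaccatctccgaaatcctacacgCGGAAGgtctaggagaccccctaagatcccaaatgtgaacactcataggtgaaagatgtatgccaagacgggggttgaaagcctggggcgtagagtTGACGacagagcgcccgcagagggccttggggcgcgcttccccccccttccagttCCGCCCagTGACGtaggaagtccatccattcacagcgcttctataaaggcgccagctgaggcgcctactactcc
Dusp6: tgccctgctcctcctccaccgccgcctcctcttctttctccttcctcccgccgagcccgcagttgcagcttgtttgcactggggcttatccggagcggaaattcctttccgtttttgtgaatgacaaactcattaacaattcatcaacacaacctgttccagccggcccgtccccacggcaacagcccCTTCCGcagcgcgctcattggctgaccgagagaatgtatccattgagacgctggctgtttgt

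The Fos window held TGACG at 129 and 66 bases before the start, a GC box at 74 bases and an ETS core at 225 bases, and none of the matches overlapped another. The Dusp6 window held an ETS core at 62 bases before the start and none of the other 4 motifs, and neither window held the STAT palindrome or the EGR site. Over one such window for each of 27025 genes, 17.9% held TGACG, 32.9% the GC box, 7.18% the STAT palindrome, 13.8% the ETS core and 0.54% the EGR site. These matches describe letters in a short window, and elements further upstream were outside it.

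Lane depth varied widely. The endogenous total ranged from 18056 to 466096 counts with a median of 158944, and 33.6% to 79.87% of probes were above background, which is the mean plus 2 SD of the 8 negative control probes of a lane. The lanes under 30000 counts were venetoclax day 1 replicate 1 and ruxolitinib day 3 replicate 1. A normalised count is the count scaled by the geometric mean of 11 housekeeping probes, and levels of different genes are not compared because each probe has its own efficiency. BM markers were present, with Mpo, Elane, Camp, Ltf and S100a8 of granulocyte precursors above background in all 33 lanes, and Cd79b of B cells in 32. Of the endothelial and stromal markers Cxcl12 was above background in 33 lanes, Pecam1 in 32, Col1a1 in 27, Cdh5 in 19, Kdr in 12 and Col3a1 in 2. Since whole BM was assayed, fewer cells of a type and less RNA per cell cannot be told apart.

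Fos, the AP-1 subunit, was above background in all 33 mice, with raw counts from 36 to 1026. Its normalised count lay between 84.0 and 320 with a median of 198, a 3.81-fold range. The coefficient of variation over all mice was 28.1%, beside a median of 25.5% over the 133 genes with a mean of at least 100, and 80 of those genes varied less. The highest group mean was 254.0 ± 16.01 (SD, n = 2) in ruxolitinib vehicle mice on day 1 and the lowest was 107.3 ± 32.97 (SD, n = 2) in ruxolitinib vehicle mice on day 7, so both ends of the order were held by the same vehicle on different days. Untreated mice had 233.6, 127.0 and 165.2, and their spread covered most group means.

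**Figure D1:**
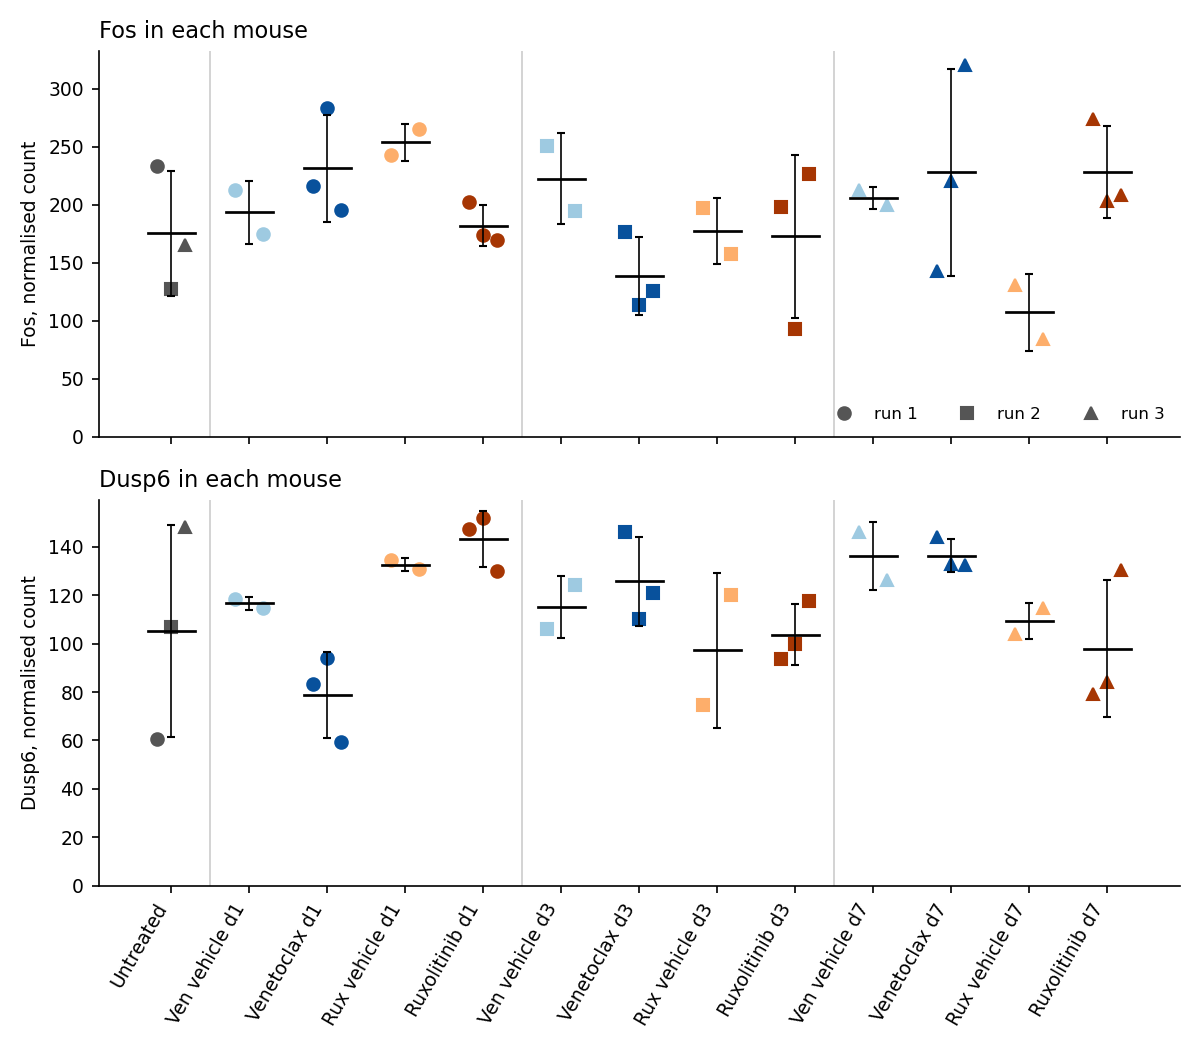
Normalised counts of Fos (top) and Dusp6 (bottom) in each of 33 mice (points, with shape giving the instrument run), by group, with the group mean (line) and SD (bar). Fos was lowest in the ruxolitinib vehicle mice of day 7 and Dusp6 was lowest in venetoclax mice of day 1, and the 3 untreated mice spread across most of the range of Dusp6 and a smaller part of that of Fos.

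The largest difference in Fos between a drug and its vehicle was on day 7 of ruxolitinib. Fos was 273.9, 202.9 and 208.1 in treated mice and 130.6 and 84.0 in vehicle mice, so each treated mouse was above both vehicle mice. Groups of 3 and 2 mice can easily separate in this way without a true difference, here and in the comparisons below. The share of all tested genes that did so was not counted. The log2 fold change was 1.05 (SE 0.32, 95% interval 0.40 to 1.70, a 1.32- to 3.24-fold difference), with an unadjusted p of 0.00266 and an adjusted p of 0.297 by edgeR's quasi-likelihood test with Benjamini-Hochberg adjustment over 655 genes. It therefore did not pass the threshold of 0.05, and 0.153% of tested genes did so in this comparison. The treated mean of 228.3 ± 39.6 (SD, n = 3) was the highest of the treated groups of day 7. The mean was 227.8 ± 89.2 (n = 3) for venetoclax and 206.0 ± 9.3 (n = 2) for its vehicle. With both vehicles of the day as control the log2 fold change was 0.60. The summed level of 5 monocyte and macrophage markers was 577 to 721 in these treated mice and 568 to 629 in their vehicle mice, and that of 6 B cell precursor markers was 332 to 376 against 488 to 502. The median log2 fold change was 0.03 (4 of 5 above 0) and −0.93 (1 of 6), beside 0.02 over all tested genes. It was 0.29 over the granulocyte precursor markers (5 of 5), 0.32 over the endothelial and stromal markers (4 of 6), −0.19 over the T cell markers (0 of 5) and −0.12 over the NK cell markers (1 of 3). None of these markers passed. The part of these markers in the Fos difference was not tested.

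On day 1 the Fos values under ruxolitinib ran the other way. Treated mice had 202.1, 174.2 and 169.6 and vehicle mice 242.7 and 265.3, without overlap, for a log2 fold change of −0.48 (SE 0.30, 95% interval −1.10 to 0.13, adjusted p = 0.526 by edgeR). The summed level of 6 endothelial and stromal markers was 246 to 327 in these treated mice and 124 to 128 in vehicle mice, with 5 of 6 above 0 and a median log2 fold change of 0.90 beside 0.13 over all tested genes. Of these, Cxcl12, a chemokine of stromal cells, passed at 1.93 (SE 0.41, adjusted p = 0.00533 by edgeR). The median was 0.58 over the granulocyte precursor markers (4 of 5 above 0), 0.59 over the T cell markers (4 of 5) and −0.94 over the NK cell markers (1 of 3), and none of these passed. The part of these markers in the Fos value was not tested. In a fit of only the groups compared, which estimated the spread from those 5 mice, the log2 fold change was −0.49 with an adjusted p of 0.0184, and 77 genes were called in place of 18. On day 3 the treated mice had 198.1, 92.98 and 226.9 and the vehicle mice 197.2 and 157.3, and the treated values lay on both sides of the vehicle values (95% interval of the log2 fold change −0.74 to 0.56). The share of tested genes that passed was 2.75% on day 1 and 0.153% on day 3, with no member among them. The 18 genes of day 1 became 7 without ruxolitinib vehicle day 1 replicate 2 and 9 without replicate 1.

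Under venetoclax, Fos was lower than in vehicle mice on day 3 by value. Treated mice had 176.7, 113.3 and 125.3 and vehicle mice 250.2 and 195.0, again without overlap. The log2 fold change was −0.68 (SE 0.31, 95% interval −1.30 to −0.05), with an unadjusted p of 0.0336 and an adjusted p of 0.410 by edgeR. The summed level of 5 T cell markers was 32.21 to 41.76 in these treated mice and 70.23 to 91.09 in vehicle mice, with a median log2 fold change of −1.11 and 0 of 5 above 0. For the 5 granulocyte precursor markers the median was 1.02 with 4 of 5 above 0, and their sum was 87636 to 112669 against 95011 to 108513. No marker passed, and their part in the Fos value was not tested. By that adjustment 0% of tested genes passed on day 3, while 70 genes had an unadjusted p under 0.05, and DESeq2 called 1 gene and TMM scaling 2. On day 1 Fos was 216.3, 283.4 and 195.2 against 212.6 and 174.5, and on day 7 it was 142.5, 220.5 and 320.4 against 212.5 and 199.4, with the groups overlapping on both days and 95% intervals of the log2 fold change of −0.36 to 0.93 and −0.47 to 0.81. No member passed on day 1 or day 7, when 0.153% of tested genes did so on each day.

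Dusp6, the cytoplasmic ERK phosphatase, was also above background in all 33 mice, with raw counts from 15 to 424. Its normalised count lay between 59.4 and 152 with a median of 119, a 2.56-fold range, and its coefficient of variation was 22.1%, with 44 of the 133 genes varying less. The highest group mean was 143.3 ± 11.6 (SD, n = 3) under ruxolitinib on day 1 and the lowest was 78.9 ± 17.7 (SD, n = 3) under venetoclax on day 1. The 11 other group means ran from 97.4 to 136.5. Untreated mice had 60.8, 106.8 and 148.3, which spanned almost the whole range of the study.

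The largest Dusp6 difference was on day 1 of venetoclax. Treated mice had 83.2, 94.1 and 59.4 and vehicle mice 118.7 and 114.7, so each treated mouse was below both vehicle mice, which groups this small can easily show without a true difference. The log2 fold change was −0.54 (SE 0.27, 95% interval −1.08 to 0.0087), with an unadjusted p of 0.0513 and an adjusted p of 0.471 by edgeR, which did not pass. The summed level of the 6 B cell precursor markers was 295 to 383 in these treated mice and 364 to 415 in vehicle mice, and that of the monocyte and macrophage markers was 527 to 607 against 436 to 518. The median log2 fold change was −0.04 over the B cell precursor markers with 3 of 6 above 0, and −0.55 over the 5 T cell markers with 0 of 5 above 0, whose sum was 29.28 to 66.55 against 55.77 to 58.26. Over the 5 monocyte and macrophage markers the median was −0.0094 with 2 of 5 above 0, although their sum was higher. The part of all these markers in the Dusp6 value was not tested.

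At the later times no such gap was measured. Dusp6 was 146.3, 110.2 and 121.0 on day 3 of venetoclax against 106.1 and 124.3, and 144.2, 132.8 and 132.4 on day 7 against 146.1 and 126.4. The 95% interval of the log2 fold change was −0.38 to 0.62 on day 3 and −0.54 to 0.50 on day 7. Under ruxolitinib the treated mice had 147.5, 152.2 and 130.2 on day 1 against 134.6 and 130.8 in vehicle mice. On day 3 they had 93.6, 99.7 and 117.8 against 74.7 and 120.0, and on day 7 they had 79.1, 84.3 and 130.5 against 104.1 and 114.8. Treated and vehicle mice overlapped on each of these ruxolitinib days, with intervals of −0.37 to 0.60, −0.44 to 0.63 and −0.74 to 0.29.

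**Figure D2:**
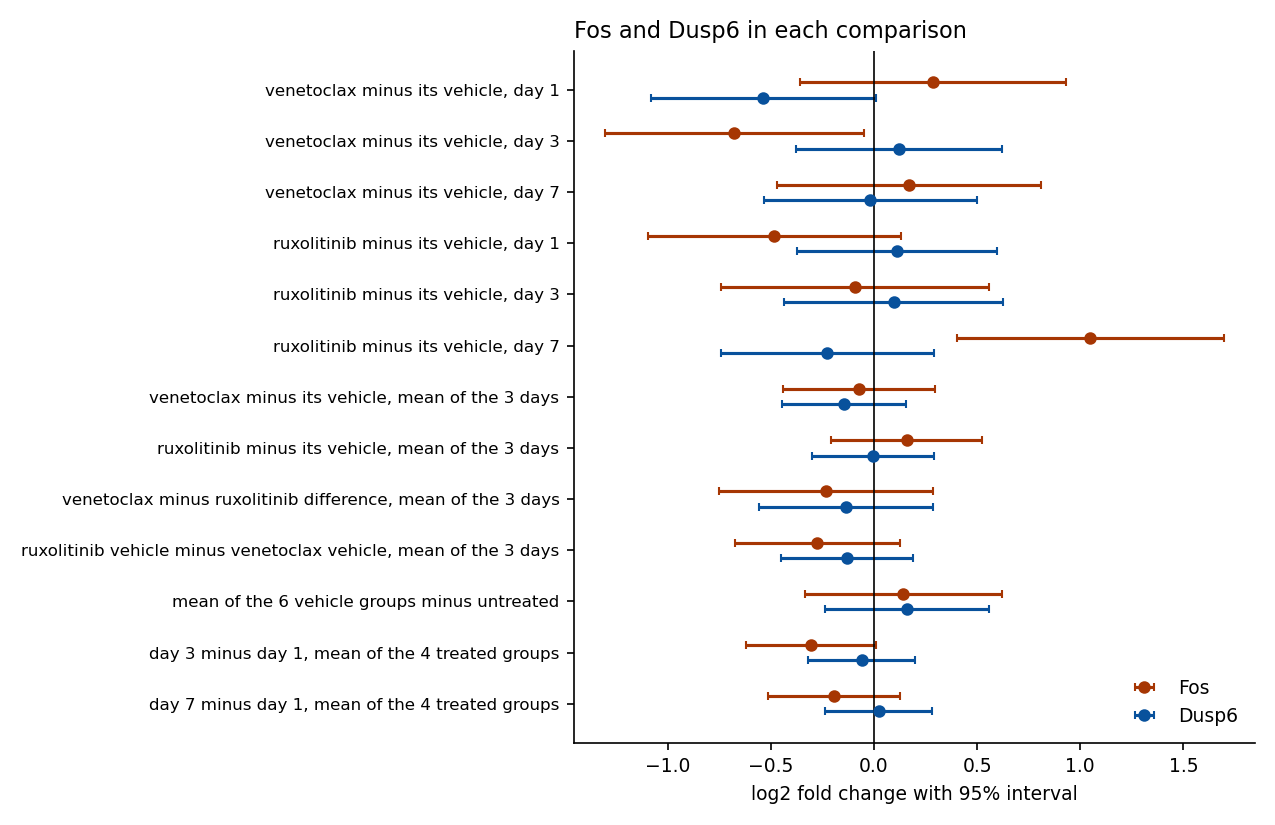
Log2 fold change of Fos (orange) and Dusp6 (blue) in each of 13 comparisons, with its 95% interval from the edgeR fit. The Fos interval lay above 0 on day 7 of ruxolitinib (0.40 to 1.70) and below 0 on day 3 of venetoclax (−1.30 to −0.05), and the remaining intervals included 0. No adjusted p was under 0.05.

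Averaged over the 3 days, neither gene differed detectably from vehicle. For Fos the 95% interval of the log2 fold change was −0.44 to 0.29 under venetoclax and −0.21 to 0.53 under ruxolitinib. For Dusp6 it was −0.45 to 0.16 and −0.30 to 0.29. A mean change of 2-fold in either direction lies outside all 4 intervals, which are unadjusted for the number of comparisons. The share of tested genes that passed was 2.9% under venetoclax and 1.22% under ruxolitinib, none of them a member. With 1 mouse left out the 19 genes under venetoclax became as few as 8 (without venetoclax vehicle day 3 replicate 1) and the 8 under ruxolitinib as few as 2 (without ruxolitinib vehicle day 3 or day 7 replicate 1). The venetoclax difference less the ruxolitinib difference had intervals of −0.75 to 0.29 for Fos and −0.56 to 0.28 for Dusp6, and there 0.611% of genes passed.

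The remaining members were near or below background in most lanes. Egr3 was above background in 18 of 33 lanes, Egr1 in 16, Elk1 in 12, Dusp4 in 8 and Egr2 in 4. The lowest count in any lane of the data was 1, and Egr2 stood at 1 in 13 lanes, Dusp4 in 11, Elk1 in 6, Egr3 in 4 and Egr1 in 2. Detection followed depth for 3 of them. In the 17 deeper and 16 shallower lanes, Egr3 was detected in 13 and 5, Egr1 in 11 and 5, and Elk1 in 9 and 3. Dusp4 was detected in 4 deeper and 4 shallower lanes and Egr2 in 2 and 2. All 5 had been tested, but the counts were too low for a fold change of useful precision, with 95% intervals reaching 0.60 to 3.32 to either side of the log2 fold change, and differences in these genes were not detectable at these counts unless large.

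**Figure D3:**
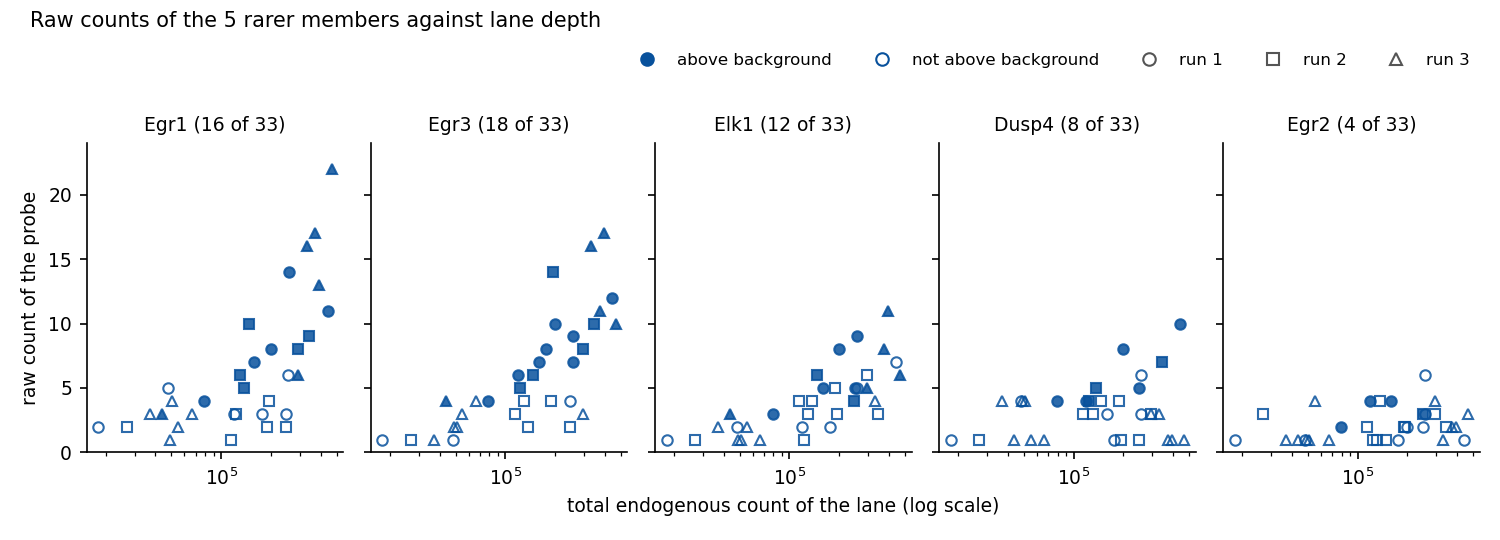
Raw count of Egr1, Egr3, Elk1, Dusp4 and Egr2 in each lane against the total endogenous count of that lane on a log scale, with filled points above background and shapes giving the run. The counts did not exceed 22 in any lane, and in run 3 no lane had Dusp4 or Egr2 above background.

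Egr1, a zinc finger factor induced by ERK, had raw counts from 1 to 22 with a median of 4. The highest count was in venetoclax day 7 replicate 3 and the other mice of that group had 3 and 4, but the normalised counts of that group were 5.21 to 9.48, since its lanes differed in depth. On day 3 of ruxolitinib, counts of 2, 9 and 1 stood against 3 and 10 in vehicle mice, or normalised counts of 1.24 to 11.01 against 3.67 to 8.11 (log2 fold change −0.83, SE 0.72). That value was −0.09 without replicate 2 of those vehicle mice and −1.21 without replicate 1, and the 3-day mean was −0.42 (SE 0.37, adjusted p = 0.684 by edgeR), with −0.17 without that same replicate 2. Egr3, a related factor that curbs T cell activation, had raw counts from 1 to 17. On day 7 of venetoclax its counts were 4, 2 and 10 against 16 and 4, or normalised counts of 3.12 to 6.95 against 6.25 to 11.24 (log2 fold change −0.82, SE 0.59). It was −0.27 without venetoclax day 7 replicate 3 and −1.43 without replicate 1 of the vehicle, and the 3-day mean was −0.54 (SE 0.37, adjusted p = 0.745 by edgeR), with −0.27 without venetoclax day 1 replicate 2. Normalised counts of treated and vehicle mice overlapped for Egr1 on day 3 of ruxolitinib and for Egr3 on day 7 of venetoclax. On day 7 of ruxolitinib those of Egr1 did not overlap, at 2.46 to 3.82 in treated mice against 4.10 to 5.19. These rest on raw counts of 6, 13 and 1 against 17 and 2, and the lanes with 1 and 2 were not above background. The log2 fold change there was smaller than its SE.

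Elk1, the ERK substrate that acts upstream of Fos and the Egr genes, had raw counts from 1 to 11. On day 1 of venetoclax, counts of 1, 5 and 3 stood against 2 and 2 in vehicle mice, or normalised counts of 3.11 to 6.36 against 1.59 to 2.16, with a log2 fold change of 1.16 (SE 0.88, adjusted p = 0.728 by edgeR), and the first of these lanes was the shallowest of the study. Egr2, needed with Egr3 for T cell anergy, never exceeded 6 counts, and that lane's background was higher than 6. No group had Egr2 above background in more than 1 mouse. The 9 groups without any such mouse included untreated mice and all 4 groups of day 7.

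The vehicles were compared with each other and with untreated mice, since each vehicle holds solvents of its own. Over the 3 days the log2 fold change of Fos with the ruxolitinib vehicle against the venetoclax vehicle was −0.28 (SE 0.20), and the interval of −0.68 to 0.12 included 0. The days differed in sign, with a mean of 254.0 against 193.5 on day 1, 177.2 against 222.6 on day 3 and 107.3 against 206.0 on day 7. The interval for Dusp6 was −0.45 to 0.19. With all vehicles against untreated mice the intervals were −0.34 to 0.62 for Fos and −0.24 to 0.56 for Dusp6. In neither comparison did a gene pass, 0% and 0% of those tested by edgeR, with 18 and 75 genes at an unadjusted p under 0.05 and none of them a member. DESeq2 and limma also called 0 genes in both. For vehicles against untreated mice, 6 genes were called without untreated replicate 2, 1 without untreated replicate 3 and 1 with no filter on low counts, and for vehicle against vehicle 1 was called with only the groups compared.

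Within single runs the vehicle mice and the 1 untreated mouse differed in both directions. The log2 ratio of the vehicle mean to that mouse was −0.06, 0.65 and −0.08 for Fos in runs 1, 2 and 3, and 1.04, −0.0075 and −0.27 for Dusp6. For the scarce members, Dusp4 was at 4, 1 and 4 raw counts in untreated mice, none above background, and its log2 fold change was −1.44 (SE 0.82, adjusted p = 0.585 by edgeR). It was −0.79, −2.63 and −0.76 without untreated replicate 1, 2 and 3, with the lowest adjusted p, 0.0989, without replicate 2. Within runs its log2 ratio took both signs, at −2.18, 2.36 and −3.09. Egr3 was at 1, 14 and 1 counts in untreated mice, with a log2 fold change of −0.58 (SE 0.46, adjusted p = 0.700 by edgeR). Without untreated replicate 2, which held the 14 counts, the Egr3 value turned to 0.60.

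Time after treatment was compared over the 4 treated groups of each day, drug and vehicle together. Day 7 and run 3 cannot be told apart here, and 46% of tested genes passed between day 7 and day 1, of which 191 were higher and 110 lower. None of the 7 members was among them. Fos had a log2 fold change of −0.19 (SE 0.16, adjusted p = 0.329 by edgeR), or −0.30 without ruxolitinib vehicle day 7 replicate 1, and the interval for Dusp6 was −0.24 to 0.28. Between day 3 and day 1 Fos had −0.31 (SE 0.16, adjusted p = 0.782) and Egr3 −0.41 (SE 0.32, adjusted p = 0.830, or −0.27 without venetoclax day 1 replicate 3), and 0% of genes passed by edgeR, with 40 at an unadjusted p under 0.05 and no member among those, and DESeq2 and limma called 0.

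Dusp4, the nuclear phosphatase, came nearest to the threshold in this comparison. It was above background in 5 of 11 lanes in run 1, 3 in run 2 and 0 in run 3, where it stood at 1 count in 6 lanes and at no more than 4 in the others. The median lane total was 176425 counts in run 1 and 66683 in run 3. The 6 lanes of run 3 at 1 count had totals from 43698 to 466096, and included the deepest lane of the run. Its lanes at 4 counts had totals from 37003 to 50682. The log2 fold change of day 7 against day 1 was −1.36 (SE 0.66), with an unadjusted p of 0.0337 and an adjusted p of 0.0698 by edgeR. Under TMM scaling it was −1.55 with an adjusted p of 0.0221, whereas limma gave −0.58 with an adjusted p of 0.336 and total count scaling −1.15 with an adjusted p of 0.137. With 1 mouse left out it ranged from −1.75 (adjusted p = 0.0181, without venetoclax day 7 replicate 2) to −0.93 (adjusted p = 0.306, without ruxolitinib vehicle day 7 replicate 1) by edgeR. Egr2 was at −0.68 (SE 0.62, adjusted p = 0.368 by edgeR), and ranged from −1.08 to −0.19 without replicate 2 or 1 of the ruxolitinib vehicle mice of day 7. The part of depth in the Dusp4 value was not tested.

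Cell type markers also differed between the same days, in a comparison where 46% of all tested genes passed. All 5 granulocyte precursor markers passed, with Elane, Mpo, Ltf and Camp higher on day 7 and S100a8 lower. Of the 6 B cell precursor markers 2 passed upwards and 3 downwards, and of the 5 monocyte and macrophage markers 4 passed upwards. Of the 5 T cell, 3 NK cell and 6 endothelial and stromal markers, 1, 1 and 0 passed. The summed granulocyte precursor level was 54396 to 120628 in run 1 and 48759 to 74301 in run 3, but S100a8 made up 75.76% to 96.33% of it. The sum of the other 4 markers was 3907 to 8657 in run 1 and 10055 to 16205 in run 3. For monocyte and macrophage markers the sum was 436 to 607 and 568 to 752. Their part in the values of the members was not tested.

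In the other genes of the MAPK pathway, differences between named groups passed for day 7 against day 1 but in none of the drug, vehicle or day 3 comparisons. Of 28 cascade genes listed, 14 were on the panel and all 14 were tested. Between day 7 and day 1, 3 passed upwards and 4 downwards, which is 50.0% of the list and close to the 46% of all tested genes. The median log2 fold change was 0.08 beside 0.14 over all tested genes. Mapkapk2, a kinase downstream of p38, was higher by a log2 fold change of 0.60 (SE 0.17, adjusted p = 0.00363 by edgeR). Map4k2 and Map3k1, kinases further upstream, were at −0.50 (SE 0.14) and −0.35 (SE 0.11). Against their vehicles, 0 of the 14 passed for either drug on any day or over the 3 days.

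Of 37 other rapidly induced genes listed, 14 were on the panel and 12 were tested, and again 0 passed in the comparisons of a drug with its vehicle. Between day 7 and day 1, 2 passed upwards and 2 downwards, 33.3% of the list beside 46% of all tested genes, and the median log2 fold change was −0.21 beside 0.14. Jun, the partner of Fos in AP-1, was higher on day 7 by a log2 fold change of 1.35 (SE 0.20, adjusted p = 1.51e-06 by edgeR). Nfkbia, the inhibitor of NF-kappaB, was at 0.55 (SE 0.19). Cd69, an early activation marker of lymphocytes, was at −0.63 (SE 0.17), and Socs3, a feedback inhibitor of JAK and STAT signalling, was at −1.01 (SE 0.40).

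Jun and Fos, although partners in AP-1, did not share this pattern. Over the 10 treated mice of each run, Jun was 13.02 ± 4.64 in run 1, 11.05 ± 4.05 in run 2 and 31.9 ± 12.99 (SD, n = 10) in run 3. The untreated mice, which had no day of treatment, had Jun at 3.2 in run 1, 6.72 in run 2 and 33.7 in run 3. The untreated mouse stood within the treated mice of its run in runs 2 and 3. In run 1 it lay below all treated mice (6.36 to 22.66), at the value that 1 count has in its lane. Fos was 214 ± 39.3, 173 ± 50.6 and 199 ± 68.5 (SD, n = 10) over the same mice, with the untreated mouse inside the range of its run in each case. Over all 33 mice the correlation of log2 values was r = 0.0047 for Fos and Jun.

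**Figure D4:**
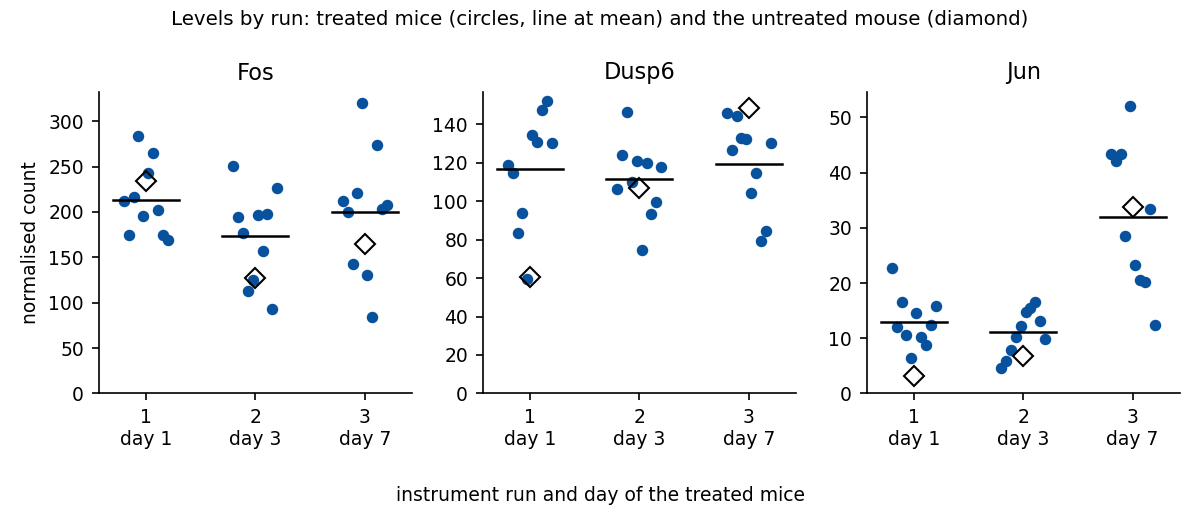
Normalised counts of Fos, Dusp6 and Jun by instrument run, which is also the day of the treated mice, with 10 treated mice (circles, line at the mean) and 1 untreated mouse (diamond) per run. Jun was higher in run 3, with a mean of 31.9 in treated mice against 13.02 in run 1. For Fos these means were 199 and 214, and for Dusp6 they were 119 and 117. The ranges of the runs overlapped for Fos and Dusp6, and those of runs 1 and 3 also did so for Jun.

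The 2 well measured members did not follow each other from mouse to mouse. Over 33 mice, Pearson's r between Fos and Dusp6 on log2 values was −0.10 (permutation p = 0.579, adjusted 0.868 over 3 relations) and Spearman's rho was −0.07 (permutation p = 0.710, adjusted 0.902). Without the 2 mice farthest from the Fos median r was −0.16, and within runs 1, 2 and 3 it was −0.20, −0.04 and −0.09. For Fos and Jun the permutation p of r was 0.979 and rho was −0.02. Dusp6 and Jun had r = 0.35 (permutation p = 0.0457, adjusted 0.137) and rho = 0.23 (permutation p = 0.201, adjusted 0.603). That r fell to 0.11 without the 2 farthest mice, so over all mice it rested on those. Within runs 1, 2 and 3 it was 0.61, −0.41 and 0.37, with run 2 of the opposite sign, and with group means removed it was 0.41.

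The genes most like each member across the 33 mice were taken by Spearman's rho among the tested genes with a mean of at least 20, as a description, since all values share the lane and its scaling. For Fos these were Nlrp3, the sensor of an inflammasome, with rho 0.51, Irak2, a kinase of Toll-like receptor signalling, with 0.46, and Osm, a cytokine of myeloid cells, with 0.40, while the median over 353 candidates was −0.06. Nlrp3 had a rho of 0.72, 0.60 and 0.83 within runs 1, 2 and 3, and 0.73 after group means were removed. For Dusp6 they were Abca1, a cholesterol exporter, with rho 0.69, Cd79b, a chain of the B cell receptor, with 0.66, and Lyn, a Src family kinase, with 0.63, beside a median of 0.24. Within runs Abca1 had 0.65, 0.83 and 0.54, Cd79b 0.89, 0.45 and 0.42 and Lyn 0.64, 0.71 and 0.75. After group means were removed rho was lower for all 3, at 0.33, 0.57 and 0.49. For Egr3, at its low counts, the leading genes were Rps6 with 0.36, Psen2 with 0.33 and Itga6 with 0.31, which is too weak to describe a pattern. The remaining members were above background in fewer than 17 lanes and were not ranked.

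In a test of any difference among the 13 groups 36.3% of tested genes passed, and no member was among them. Fos had an adjusted p of 0.0875 and Dusp6 of 0.121 by edgeR, and both fell under 0.05 with DESeq2, at 0.0417 and 0.0276. The adjusted p of the scarcer members lay between 0.657 for Egr3 and 0.978 for Egr2. Of the listed cascade genes 3 passed, among them Map3k1 and Mapk11, and of the other rapidly induced genes Jun did so (adjusted p = 1.05e-05).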

How the data were processed

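BM RNA of 33 mice in 13 groups was measured in 1 nCounter lane each. The deposited values are raw barcode counts per probe, exported without normalisation. The authors normalised and analysed their data with nCounter Advanced Analysis 2.0.115, which is not part of these counts. The paper names the Mouse PanCancer Immune Profiling Panel, whereas the series text names an immunology panel, and the run of day 3 carries a header for day 2. The paper gives doses in mg/kg where the labels give mg/ml, and 3-4 mice per group where 2 or 3 were labelled. Aside from the mouse each lane came from, no source describes the replicates.

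Of 20 housekeeping probes, 11 exceeded background in every lane, and their geometric mean set the scale of a lane. A gene entered the tests if it exceeded background in 2 lanes or more, as 655 of 750 did. The main tool was edgeR 4.0.16 (R 4.3.3), whose quasi-likelihood test was run on 1 fit of 13 group means with 20 residual degrees of freedom. P-values were adjusted by Benjamini-Hochberg, and 0.05 was the threshold. The common dispersion was 0.0406, a coefficient of variation of 20.2% between mice. With 2 to 3 mice per group, counting error and this spread limit the precision.

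The 7 members, the gene lists and the comparisons were chosen with earlier results of these data known. Named genes were the members, up to 4 called genes of each pathway list per comparison by adjusted p, and the 3 genes most like each member above background in at least 17 lanes. Genes that passed in the test across all groups are also named, and a gene that this rule selects is not reported here. Member fold changes were printed only where they exceeded their SE, and for Fos and Dusp6 intervals are given in other cases. Correlations used log2(normalised count + 1) with 100000 permutations in Python 3.11.15 with scipy 1.17.1. Promoter windows came from RefSeq on GRCm38.p6, where all 7 members matched the annotation and 4 had a window.

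The alternatives were TMM scaling, total count scaling, DESeq2 1.42.0, limma 3.58.1 on log2 values, no filter, a filter at 17 lanes, the replicate number as a block, only the groups compared, both vehicles as control, the run as a block, and leaving out the 2 lanes under 30000 counts or each mouse in turn. The test was tested on counts simulated for day 7 of ruxolitinib with 655 genes, of which 200 had been changed. There it found 49% of 2-fold and 87% of 4-fold changes. Among 16 genes changed 2-fold whose mean was 100 or more it found 68.8%, and where nothing had been changed it called 0. With 200 genes changed the adjustment is more lenient than in the data, where 1 gene was called in this comparison. The shares found are therefore likely too high for the data.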

Additional observations from a re-analysis of the deposited data

How the results depend on the processing

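For 17 fold changes of members, 152 of 158 values under other settings and 203 of 207 with 1 mouse left out kept their direction and their side of the threshold. These 17 were the ones that exceeded their SE in the main fit, which favours keeping the direction. None had passed there, so keeping their side means staying uncalled, and the shares do not show that the fold changes are stable. The Egr3 value of vehicles less untreated mice, −0.58, turned to 0.084 with limma and 0.051 with the run as a block, and ranged from −0.78 to 0.60 with 1 mouse left out, the highest without untreated replicate 2. The cause was not tested.

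Members called in the test across 13 groups numbered 0, but 2 with DESeq2 (Fos and Dusp6), 1 in the fit with a replicate block (Fos, adjusted p = 0.0388), and 0 to 2 with 1 mouse left out. Fos passed without untreated replicate 1, ruxolitinib day 3 replicate 2 or 3, or venetoclax day 7 replicate 1, and Dusp6 without untreated replicate 1 or 3. Between day 7 and day 1 the count of 0 became 1 (Dusp4) under TMM scaling, under only the groups compared (−1.41, adjusted p = 0.0380) and with a replicate block (−1.58, adjusted p = 0.0356). It ranged from 0 to 1 with 1 mouse left out, with Dusp4 at −1.63 without ruxolitinib day 7 replicate 3 and −1.57 without venetoclax vehicle day 1 replicate 2, and also at −0.99 (adjusted p = 0.357) without venetoclax vehicle day 1 replicate 1. On day 1 of ruxolitinib the count became 1 (Fos) under only the groups compared. The other counts of members called stayed at 0.

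Replicate numbers were shared between groups but named different mice. Over 12 pairs of a treated and a vehicle mouse of the same number, deviations correlated from −0.35 to 0.30, with 4 over 0.1 and others at −0.15, −0.24 and −0.35. In 7 of 12 pairs the correlation was above 0. The deviations of the 2 vehicle mice of a group mirror each other, so a better match with the same number adds nothing to that sign. The replicate block moved the genes called from 19 to 11 for venetoclax and from 8 to 4 for ruxolitinib over the 3 days, and from 4 to 10 for the difference between drugs.

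Over all settings other than leaving out a mouse, genes called ranged from 0 to 25, 0 to 2 and 0 to 1 for venetoclax on days 1, 3 and 7, from 10 to 77, 0 to 10 and 0 to 1 for ruxolitinib, from 11 to 26 and 2 to 20 over the 3 days, and from 3 to 10 for the difference between drugs. With 1 mouse left out the ranges were 0 to 3, 0 to 2 and 0 to 1 for venetoclax, 7 to 17, 1 to 3 and 0 to 1 for ruxolitinib, 8 to 19 and 2 to 11 over the 3 days, 3 to 8 for the difference between drugs, 0 to 6 for vehicles less untreated mice and 0 to 1 between day 3 and day 1. Low counts limit the precision of Egr1, Egr2, Egr3, Dusp4 and Elk1. Leaving out the 2 lanes under 30000 counts changed no call of a member.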
